A study of Mus musculus with 13 samples.

Results

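The genes described here build and run the primary cilium. They were the 51 gene symbols of intraflagellar transport, the BBSome, the ciliary transition zone, the centriole below the cilium and ciliary regulators of Hedgehog signaling, chosen by name from 21100 listed genes. The choice was made with earlier results of these data known. All 51 had a value in all 13 tumors and passed the filter on low counts, as did 14390 genes in all.

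RNA was sequenced from basal cell carcinomas (BCC) of female mice in 2 models. The 9 GEM-BCC tumors grew in the skin of 7 Ptch1+/- K14-CreER2 p53fl/fl mice after 3 injections of 300 µg tamoxifen and a single X-ray dose of 4 Gy. GEM tumors 2 and 3 shared a mouse, as did tumors 7 and 8. The 4 Tp-BCC tumors grew under the flank skin of 4 Ptch1+/- p53fl/fl hosts without the Cre transgene, each inoculated with 2000000 tumor cells. Both models share the Ptch1+/- and p53fl/fl alleles, and Cre is driven in GEM-BCC by the keratin 14 promoter, so recombination was directed to keratin 14-expressing basal cells. All transplanted tumors descend from a single GEM-BCC tumor, so their spread is that of a single tumor lineage in different hosts. The GEM libraries held 28075317 to 32629102 expected counts and the Tp libraries 15388027 to 17494912. Every GEM tumor was in batch 1 and every Tp tumor in batch 2, so batch and model cannot be told apart.

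The primary cilium is a single antenna that grows from the mother centriole of most vertebrate cells. Intraflagellar transport (IFT) carries cargo along it: the IFT-B complex moves outward with kinesin-2, the IFT-A complex inward with cytoplasmic dynein 2, the BBSome ferries membrane proteins, and the transition zone gates the base. Vertebrate Hedgehog signaling runs through this organelle. Ptch1 holds Smoothened out of the cilium, and Gli factors are processed into activators or repressors there, so BCC, a tumor of Hedgehog activation, depends on these parts.

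Many ciliary genes carry an X-box in their promoter, a site bound by RFX transcription factors. Its consensus, the arm GTNNCC and the arm GNAAC with 3 bases between them, was searched on both strands in RefSeq promoters of the GRCm38.p6 build, from 250 bases before to 50 bases after the first listed start of each gene. Promoters were held for 46 of the 51 genes, and Ift80, Ift81, Ift122, Iqce and Efcab7 had no entry. A match was found in 9 of the 46 promoters (19.6%) and in 586 of 27025 promoters of all genes (2.17%). The 10 matches are shown 5′ to 3′ on the strand of the gene because they are what a subset of the genes shares in sequence, with the 14-base match in capitals and up to 8 flanking bases in lower case. In Ift57, Bbs1, Tctn2 and the first Ift22 match the consensus reads only on the other strand, so the capitals are its reverse complement.
Ift22 (chr5:136908079-136908108, plus strand, 63 bases before the start): ctgtcaggGTTTCCTGGGCTACtgcgcagc
Ift22 (chr5:136908109-136908138, plus strand, 33 bases before the start): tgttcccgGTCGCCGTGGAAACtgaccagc
Ift57 (chr16:49699199-49699228, plus strand, 87 bases before the start): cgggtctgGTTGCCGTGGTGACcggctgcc
Bbs1 (chr19:4906605-4906634, minus strand, at base 2 after the start): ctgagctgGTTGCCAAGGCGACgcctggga
Bbs4 (chr9:59353464-59353493, minus strand, at base 24 after the start): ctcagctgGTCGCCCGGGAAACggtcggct
Bbs7 (chr3:36613489-36613518, minus strand, 121 bases before the start): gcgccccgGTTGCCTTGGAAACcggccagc
Tctn1 (chr5:122264411-122264432, minus strand, at base 37 after the start): ctgtgactGTTGCCCGGGCAAC
Tctn2 (chr5:124598679-124598708, plus strand, 62 bases before the start): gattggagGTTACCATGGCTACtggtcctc
B9d2 (chr7:25680788-25680817, plus strand, at base 17 after the start): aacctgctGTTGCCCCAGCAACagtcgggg
Mks1 (chr11:87853183-87853212, plus strand, 24 bases before the start): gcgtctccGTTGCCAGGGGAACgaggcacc

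The matches lay in 4 of 9 transition zone promoters, 3 of 9 BBSome promoters and 2 of 9 IFT-B promoters, and in none of the 5 IFT-A, 4 motor, 2 centriole and 8 Hedgehog regulator promoters held. A match describes letters in this window and is not a shown binding site. The 9 genes with a match had log2 fold changes of Tp-BCC over GEM-BCC from −1.11 to 0.44 (median 0.18, 7 positive), and none of them passed the test described below, or 2, Bbs4 and Bbs7, once the trend of each tumor with GC content was taken out. The 37 without a match ran from −1.09 to 0.86 (median −0.24, 12 positive), with 4 past the test, or 5 once that trend was taken out. Of all genes tested 19.4% passed, or 28.3% once that trend was taken out. The Gli consensus GACCACCCA, searched the same way, was found in none of the 46 promoters and in 0.244% of all promoters.

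The tumors differed in how the level of a gene ran with the GC content of its transcripts. In Tp tumors 2 and 4, genes with GC-poor transcripts read low, and in Tp tumors 1 and 3 they read high. Over the 14153 genes with a known GC content, the Spearman correlation of a gene's deviation from its mean with its GC content was −0.39 in Tp tumor 1, 0.59 in Tp tumor 2, −0.47 in Tp tumor 3 and 0.59 in Tp tumor 4. The same correlation over the 51 cilium genes was −0.49, 0.90, −0.76 and 0.59. The cilium genes have somewhat GC-poorer transcripts than the rest, with a median of 48.6% (38.3% to 59.5%) against 51.3%. GEM tumor 1 ran the same way as Tp tumors 2 and 4, at 0.37 over all genes and 0.79 over the cilium genes, and the other 8 GEM tumors ran the opposite way. The counts of genes that passed, and the cilium genes that passed the main comparison or with GC offsets, are therefore also given from a fit with offsets that take out each tumor's trend with GC content (the GC offsets), or without the Tp tumors concerned.

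**Figure D1:**
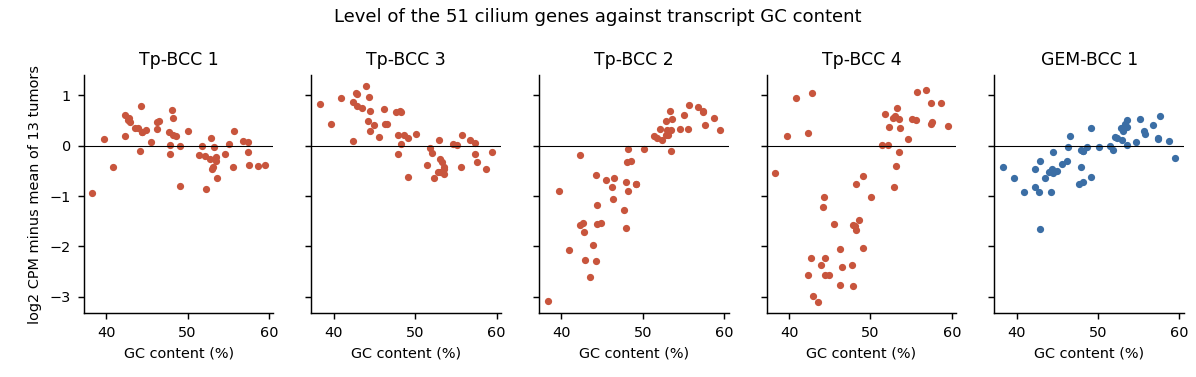
Deviation of each of the 51 cilium genes (points) from its mean log2 CPM over the 13 tumors, against the GC content of its transcripts in percent, in the 4 Tp-BCC tumors and GEM-BCC tumor 1. Tp tumors 2 and 4 and GEM tumor 1 rise from low to high GC content (Spearman 0.90, 0.59 and 0.79), and Tp tumors 1 and 3 fall (−0.49 and −0.76).

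The comparison of the 2 models asks how far the transplanted tumors keep the transcriptome of the parental model. Every gene was given 3 outcomes: the log2 fold change of Tp-BCC over GEM-BCC, its standard error (SE), and an edgeR quasi-likelihood p adjusted over all 14390 genes by Benjamini-Hochberg. A gene passed when its adjusted p was under 0.05. Most of the cilium machinery did not pass: 3 genes were higher and 2 lower in Tp-BCC, 5 of 51, while 19.4% of all genes passed (11.1% higher and 8.35% lower). None combined an adjusted p under 0.05 with an absolute log2 fold change above 2, as 5.57% of all genes did. At an unadjusted p under 0.05 the count was 7 of 51, beside 4964 of all 14390 genes. DESeq2's Wald test passed 3 higher and 3 lower, with none above the fold of 2, beside 26% of all genes in either direction. The fold changes of the 51 genes ran from −1.11 to 0.86 with a median of −0.17, against −0.03 over all genes, and 30 were negative.

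With GC offsets, 2 cilium genes passed as higher (Evc and Bbs7) and 5 as lower (Kif3b, Kifap3, Bbs4, Tctn3 and Ankmy2), beside 15.1% and 13.3% of all genes (28.3% in either direction). The median was then −0.21, and 38 of the 51 were negative. Without Tp tumors 2 and 4 only Ift43 passed, as lower (10.4% of all genes passed in either direction), and the median was −0.015. Without Tp tumors 1 and 3, 4 passed as higher and 22 as lower, while 42.9% of all genes passed. Of these 22, 12 had a log2 fold change below −2, beside 1850 of 14275 genes past a fold of 2 in either direction. Leaving out Tp tumor 2 alone left 0 higher and 1 lower, leaving out Tp tumor 4 left 0 and 2, and leaving out Tp tumor 3 left 3 and 6. The share of all genes is not given for the fits without a single tumor. The counts of cilium genes therefore moved with which transplanted tumors were in the fit, as did the share of all genes that passed. That share was 10.4% without Tp tumors 2 and 4, 19.4% in the main fit and 42.9% without Tp tumors 1 and 3.

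**Figure D2:**
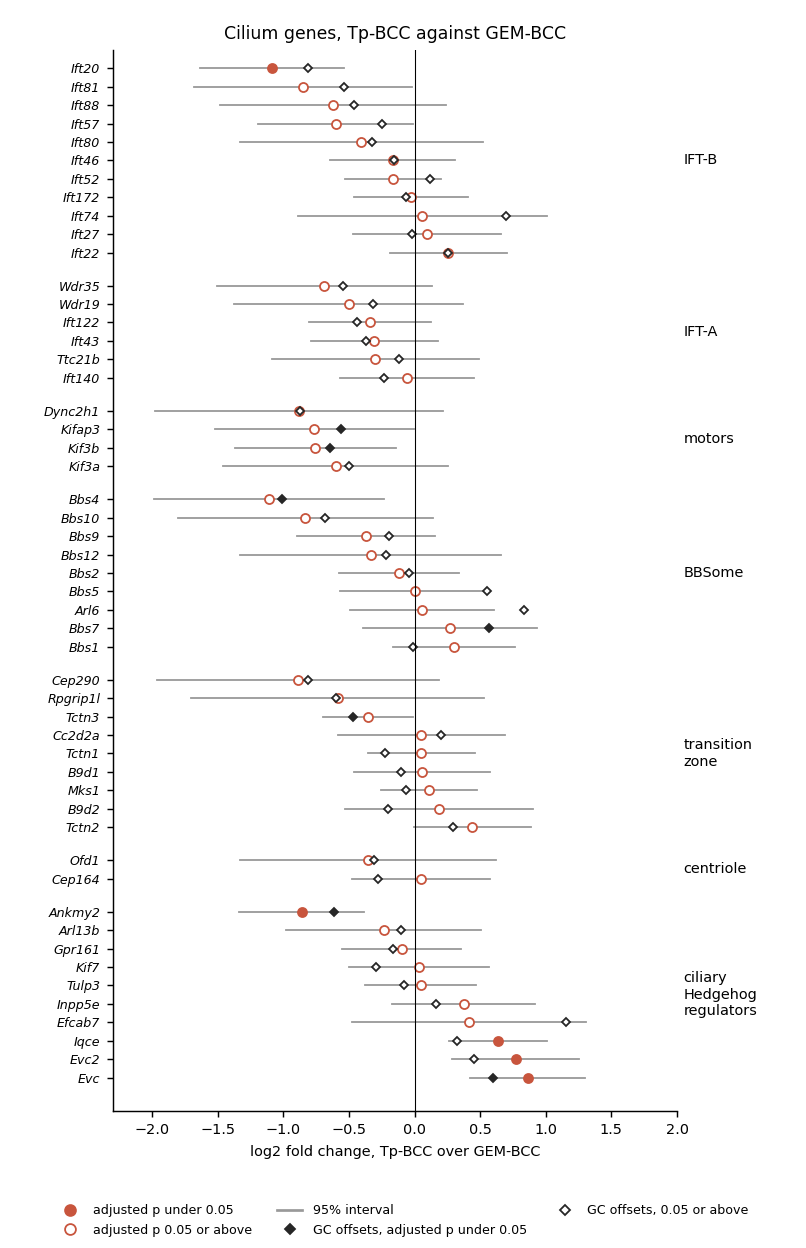
Log2 fold change of Tp-BCC over GEM-BCC for each of the 51 cilium genes, grouped by role, with circles and 95% intervals (lines) from the edgeR fit and diamonds from the fit with GC offsets. Filled symbols have an adjusted p under 0.05, 5 in the first fit and 7 with GC offsets.

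Among the 10 ciliary Hedgehog regulators 3 passed as higher and 1 as lower, beside 11.1% and 8.35% of all genes, with a median log2 fold change of 0.21. With GC offsets 1 passed as higher (Evc) and 1 as lower (Ankmy2), beside 15.1% and 13.3% of all genes, and the median was 0.04. Evc, Evc2 and Iqce encode parts of the Evc complex, which sits at the base of the cilium next to the transition zone and passes the signal from Smoothened on toward Gli.

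Evc had 47.8 to 97.3 CPM, a read count scaled to the size of its library, in the 9 GEM tumors, with a median of 67.0, and 100.4, 144, 96.1 and 172 CPM in Tp tumors 1 to 4. Only Tp tumor 3 lay within the GEM range, just below GEM tumor 1, and Tp tumors 2 and 4 were far above it. The means were 70.5 ± 17.0 (SD, n = 9) and 128 ± 36.6 CPM (SD, n = 4), a log2 fold change of 0.86 (SE 0.22, edgeR adjusted p = 0.0146). With GC offsets it was 0.60 (SE 0.17, edgeR adjusted p = 0.018), and once each tumor's GC trend was removed all 4 Tp tumors lay above all 9 GEM tumors. Leaving out Tp tumor 2 gave 0.77 (edgeR adjusted p = 0.0577) and leaving out Tp tumor 4 gave 0.64 (edgeR adjusted p = 0.0665). Without both it was 0.48 (edgeR adjusted p = 0.216).

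Evc2, the partner of Evc, had 46.8 to 108 CPM in GEM-BCC, with a median of 71.2, and 86.5, 138, 87.2 and 174 CPM in Tp tumors 1 to 4. Tp tumors 1 and 3 lay inside the GEM range, and Tp tumors 2 and 4 above it. The log2 fold change was 0.77 (SE 0.25, edgeR adjusted p = 0.0406), and 0.45 with GC offsets (edgeR adjusted p = 0.0813). Evc2 no longer passed when any of GEM tumors 2 to 8 or Tp tumors 2 or 4 was left out, with edgeR adjusted p from 0.0522 to 0.192 and fold changes from 0.50 to 0.79 over those 9 fits. Evc and Evc2 moved together across the GEM tumors, with Pearson r = 0.94 over 9 tumors and 0.93 after removal of the GC trend. Their starts lie 1597 bases apart on opposite strands in GRCm38.p6, pointing away from each other. The tumors behind this r include pairs from the same mouse, and over the 7 mouse means it was 0.95.

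Iqce, which anchors Evc and Evc2 in their zone, had 36.7 to 55.9 CPM in GEM-BCC, with a median of 44.5, and 53.6, 82.9, 52.8 and 91.5 CPM in Tp tumors 1 to 4. GEM tumor 1 exceeded Tp tumors 1 and 3, and no other GEM tumor reached them. The log2 fold change was 0.64 (SE 0.19, edgeR adjusted p = 0.0289). It was 0.32 with GC offsets (edgeR adjusted p = 0.052), 0.52 without Tp tumor 2 (edgeR adjusted p = 0.121) and 0.43 without Tp tumor 4 (edgeR adjusted p = 0.116). Efcab7, the other subunit of that zone, had 1.55 to 10.3 CPM in GEM-BCC and 7.36, 1.48, 8.80 and 10.5 CPM in Tp tumors 1 to 4. Its log2 fold change of 0.42 (SE 0.46, edgeR adjusted p = 0.542) did not pass, nor did the 1.15 with GC offsets (SE 0.45, edgeR adjusted p = 0.068), the highest of the 51 genes in that fit. Across the 9 GEM tumors Efcab7 ran against Evc, with r = −0.79, and −0.70 after removal of the GC trend.

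Evc, Evc2 and Iqce lie on chromosome 5, as do 10 of the 51 genes. The 889 tested genes of chromosome 5 had a median log2 fold change of 0.30, the highest of the 20 chromosomes tested, and with GC offsets 27.8% of them passed as higher, against 15.1% of all genes. Of the 20 tested neighbors of Iqce, 10 on each side, 9 passed as higher and none as lower, with a median of 0.70. Of the 20 neighbors of Evc, 3 passed as higher and 2 as lower, with a median of 0.29. The other 7 cilium genes of chromosome 5, Ift22, Ift81, Ift172, Wdr19, Tctn1, Tctn2 and Cc2d2a, did not pass and ran from −0.85 to 0.44. The part of the chromosome in the 3 increases was not tested.

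Ankmy2, which brings adenylyl cyclases to the cilium and thereby favors protein kinase A and Gli repressor formation, was the cilium gene whose tumors of the 2 models did not overlap. It had 35.4 to 56.4 CPM in GEM-BCC, with a median of 46.7, and 33.2, 22.7, 33.3 and 12.5 CPM in Tp tumors 1 to 4. Every Tp tumor was below every GEM tumor, which held for no other of the 51 genes in either direction and for 9.95% of all genes in either direction (4.45% with Tp-BCC lower). After removal of each tumor's GC trend the groups were apart in 4 of the 51 genes, Ankmy2, Evc, Iqce and Bbs7, and in 15.4% of all genes. The means were 46.2 ± 5.96 (SD, n = 9) and 25.4 ± 9.96 CPM (SD, n = 4), a log2 fold change of −0.86 (SE 0.24, edgeR adjusted p = 0.0227). With GC offsets it was −0.61 (SE 0.13, edgeR adjusted p = 0.00293). Leaving out Tp tumor 2 gave −0.83 (edgeR adjusted p = 0.0702), and leaving out Tp tumors 2 and 4 gave −0.48 (edgeR adjusted p = 0.12).

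The other regulators did not pass. Levels per kilobase use the median length of a gene's protein-coding transcripts. Tulp3, an adaptor that takes receptors into the cilium with IFT-A, was the best expressed of the group on this scale, at 129 CPM per kilobase in GEM-BCC and 133 in Tp-BCC. Its level was 113 to 165 CPM in GEM-BCC and 97.9, 167, 93.7 and 204 CPM in Tp tumors 1 to 4, so that the 4 Tp tumors lay on both sides of the GEM tumors. Kif7, the kinesin that organizes the ciliary tip, Inpp5e, a phosphatase of the ciliary membrane, Arl13b, a membrane GTPase, and Gpr161, a receptor that holds the pathway down, had log2 fold changes of 0.03, 0.37, −0.24 and −0.10, and of −0.29, 0.16, −0.10 and −0.16 with GC offsets. Tulp3 was at 0.05 and −0.08.

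**Figure D3:**
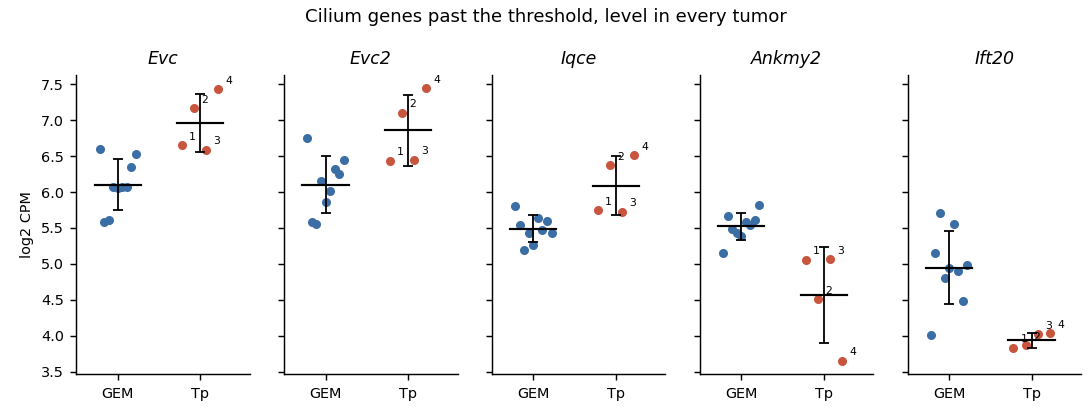
Level (log2 CPM) of the 5 cilium genes that passed, in each of the 9 GEM-BCC and 4 Tp-BCC tumors (points, Tp tumors numbered), with the mean and SD (bars). Evc, Evc2 and Iqce are highest in Tp tumors 2 and 4, Ankmy2 is lower in all 4 Tp tumors than in any GEM tumor, and the Tp tumors are close together for Ift20.

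Of the 11 IFT-B genes, Ift20 passed as lower and the others did not. Ift20 is the IFT-B subunit that also sits at the Golgi and helps send membrane proteins to the cilium. It had 16.1 to 52.2 CPM in GEM-BCC, with a median of 30.7, and 14.2, 14.5, 16.2 and 16.3 CPM in Tp tumors 1 to 4. On this scale the 4 Tp tumors were nearly level with each other (SD 0.10 of log2 CPM), and only GEM tumor 1 reached down to them. After removal of the GC trend the SD was 0.46, with log2 CPM of 3.71, 4.01, 3.90 and 4.76. The means were 32.5 ± 11.2 (SD, n = 9) and 15.3 ± 1.11 CPM (SD, n = 4), a log2 fold change of −1.09 (SE 0.28, edgeR adjusted p = 0.0143). It passed whichever single tumor was left out, from −1.22 to −1.01, and was −1.11 without Tp tumors 2 and 4 (edgeR adjusted p = 0.0834). With GC offsets it was −0.81 (edgeR adjusted p = 0.0547).

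Of the remaining IFT-B genes, Ift46 was the best expressed per kilobase of median transcript length, at 173 CPM per kilobase in GEM-BCC and 154 in Tp-BCC. This rank rests on a median length of 602.5 bases, while the longest coding transcript of Ift46 held 4070 different 100-base words. The log2 fold change of Ift46 was −0.17 (edgeR adjusted p = 0.656), and −0.16 with GC offsets. Ift52 varied least of the 51 genes over the GEM tumors, with 47.8 to 63.3 CPM (SD 0.13 on the log2 scale), and had 61.9, 51.1, 54.7 and 31.5 CPM in Tp tumors 1 to 4. Ift74 varied most, with 5.04 to 21.4 CPM in GEM-BCC (SD 0.73) and 7.59, 2.38, 19.9 and 19.8 CPM in the Tp tumors. Neither passed: Ift52 was at −0.17, and 0.11 with GC offsets, and Ift74 at 0.06, and 0.70 with GC offsets (edgeR adjusted p = 0.261). Ift22, Ift27, Ift57, Ift80, Ift81, Ift88 and Ift172 had log2 fold changes from −0.85 to 0.26.

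All 6 IFT-A genes had negative log2 fold changes, from −0.69 to −0.06 with a median of −0.32, and none passed, with or without GC offsets. IFT-A returns cargo to the cell body and admits membrane proteins into the cilium. Ift43, the best expressed of the 6 per kilobase at 35.7 CPM per kilobase in GEM-BCC, had 20.3 to 35.0 CPM there and 13.8, 27.1, 15.98 and 32.4 CPM in Tp tumors 1 to 4. Tp tumors 1 and 3 lay below all GEM tumors and Tp tumors 2 and 4 within them. The log2 fold change was −0.31 (edgeR adjusted p = 0.394), and −0.90 without Tp tumors 2 and 4 (edgeR adjusted p = 0.0324). Wdr35, Wdr19, Ttc21b, Ift122 and Ift140 make up the rest.

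The 4 motor genes showed the lowest median of any group, −0.76, with none passing in the main comparison. Kif3a and Kif3b are the motor subunits of kinesin-2, Kifap3 links them to cargo, and Dync2h1 is the heavy chain of the returning dynein. Dync2h1 had 9.90 to 30.3 CPM in GEM-BCC, with a median of 22.8, and 19.6, 2.44, 26.0 and 1.71 CPM in Tp tumors 1 to 4. Tp tumors 1 and 3 sat inside the GEM range, whereas Tp tumors 2 and 4 were far below every GEM tumor. The log2 fold change was −0.88 (SE 0.56, edgeR adjusted p = 0.277), −0.02 without Tp tumors 2 and 4, and −3.46 without Tp tumors 1 and 3.

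Kif3b had 37.6 to 60.8 CPM in GEM-BCC and 38.3, 22.8, 43.2 and 9.35 CPM in Tp tumors 1 to 4. Kifap3 had 45.8 to 81.6 CPM in GEM-BCC and 60.2, 22.1, 61.5 and 8.35 CPM in Tp tumors 1 to 4. Kif3a, the best expressed motor per kilobase of median transcript length, had 18.7 to 63.4 CPM in GEM-BCC and 38.4, 12.99, 50.5 and 6.07 CPM in Tp tumors 1 to 4. In each of the 3 kinesin-2 genes Tp tumors 1 and 3 lay within the GEM range and Tp tumors 2 and 4 below it.

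With GC offsets Kif3b was at −0.65 (SE 0.22, edgeR adjusted p = 0.0382) and Kifap3 at −0.56 (SE 0.19, edgeR adjusted p = 0.0421), while Kif3a at −0.50 (edgeR adjusted p = 0.264) and Dync2h1 at −0.87 (edgeR adjusted p = 0.0641) did not pass. The mean deviation of the 4 motors, after removal of the GC trend, was −0.11 to 0.42 in the GEM tumors and −0.02, −0.84, 0.14 and −1.42 in Tp tumors 1 to 4. Removing the trend shrank the gap of Tp tumors 2 and 4 and did not close it. The median transcript length was 2390.5 bases for the 51 genes and 2217.5 for all genes. With GC and length offsets together the motors had a median of −0.59 with 2 past the test as lower, beside 2131 of all 14390 genes.

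**Figure D4:**
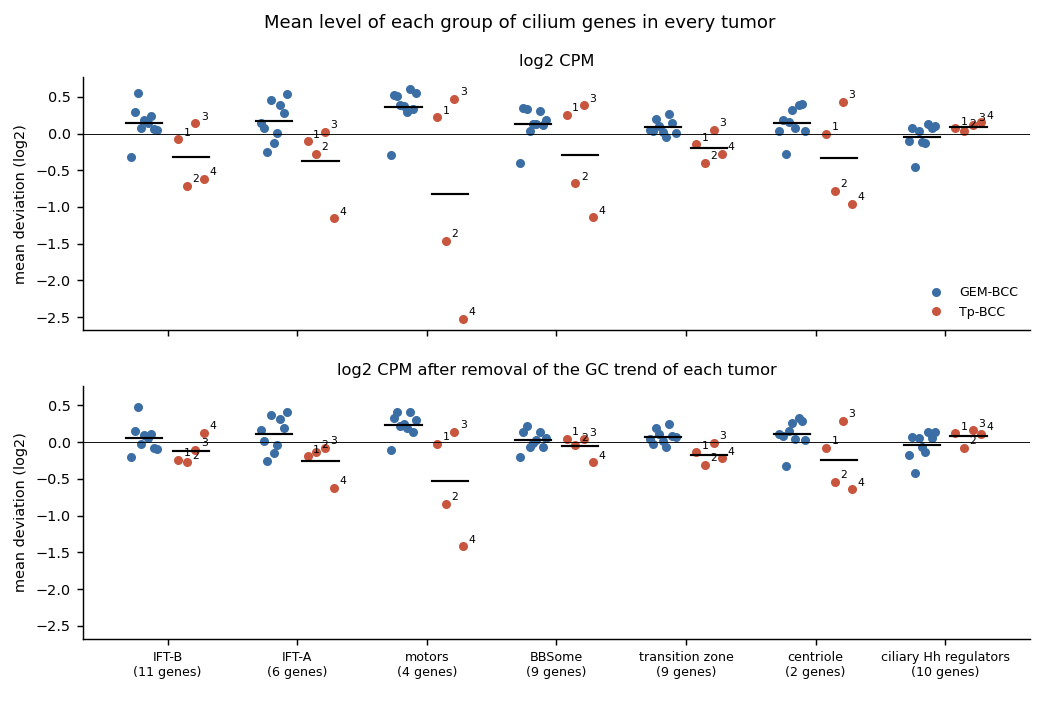
Mean deviation (log2) of each group of cilium genes from its mean over all 13 tumors, in every GEM-BCC and Tp-BCC tumor (points, Tp tumors numbered; lines are group means), before (top) and after (bottom) removal of each tumor's GC trend. Motors in Tp tumors 2 and 4 stand lowest, at −1.46 and −2.52 before and −0.84 and −1.42 after.

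The 9 BBSome genes had a median of −0.12, and none passed in the main comparison. Arl6, the GTPase that recruits the BBSome to the membrane, was the best expressed per kilobase at 16.4 CPM per kilobase in GEM-BCC. It had 10.9 to 38.7 CPM in GEM-BCC and 22.0, 17.0, 20.8 and 23.2 CPM in Tp tumors 1 to 4, all inside the GEM range. Its log2 fold change was 0.06, and 0.84 with GC offsets (edgeR adjusted p = 0.0717). Bbs4, a subunit of the assembled coat, had 5.52 to 12.4 CPM in GEM-BCC and 7.48, 2.31, 8.62 and 1.00 CPM in Tp tumors 1 to 4, so that Tp tumors 2 and 4 lay below every GEM tumor. It had the lowest fold change of the 51 genes, −1.11 (SE 0.45, edgeR adjusted p = 0.091), which with GC offsets was −1.01 (SE 0.32, edgeR adjusted p = 0.0306).

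Bbs7, another coat subunit, went the other way. It had 7.10 to 12.3 CPM in GEM-BCC and 17.0, 6.56, 19.3 and 4.78 CPM in Tp tumors 1 to 4, so that Tp tumors 1 and 3 lay above every GEM tumor and Tp tumors 2 and 4 below. The log2 fold change was 0.27 (edgeR adjusted p = 0.6). With GC offsets it was 0.57 (SE 0.18, edgeR adjusted p = 0.0333), and the 4 Tp tumors then lay above all GEM tumors. Bbs1, Bbs2, Bbs5, Bbs9, Bbs10 and Bbs12 had fold changes from −0.83 to 0.30 and passed in neither fit.

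The 9 transition zone genes had a median of 0.05 with 3 negative, and none passed. With GC offsets the median was −0.21 with 7 negative, and only Tctn3 passed, as lower. Tctn3, a membrane protein of the gate, had 28.5 to 46.1 CPM in GEM-BCC and 28.8, 32.9, 26.6 and 32.3 CPM in Tp tumors 1 to 4. Tp tumor 3 lay below every GEM tumor and the other Tp tumors in the lower part of the GEM range. Its fold change was −0.35 (SE 0.17, edgeR adjusted p = 0.163), and −0.47 with GC offsets (SE 0.13, edgeR adjusted p = 0.0182). B9d1, a gate protein and the best expressed of the group at 37.4 CPM per kilobase in GEM-BCC, had 17.8 to 44.8 CPM in GEM-BCC and 20.3, 29.5, 17.3 and 34.8 CPM in the Tp tumors, with a fold change of 0.05, and −0.11 with GC offsets.

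Rpgrip1l, a scaffold of the gate, had 5.00 to 14.7 CPM in GEM-BCC and 8.54, 1.22, 12.6 and 0.714 CPM in Tp tumors 1 to 4. Cep290, a tether between the gate and the membrane, was the lowest of the 51 genes per kilobase, with 1.64 to 5.86 CPM in GEM-BCC and 1.12, 0.193, 4.01 and 1.499 CPM in Tp tumors 1 to 4, as few as 3 reads in a tumor. Neither passed, at −0.59 and −0.89, and at −0.60 and −0.81 with GC offsets. Tctn1, Tctn2, B9d2, Cc2d2a and Mks1 ran from 0.05 to 0.44, and from −0.23 to 0.29 with GC offsets. At the centriole, Cep164 of the distal appendages had 40.3 to 126 CPM in GEM-BCC and 64.5, 111, 66.7 and 116 CPM in Tp tumors 1 to 4, with a fold change of 0.05, and −0.28 with GC offsets. Ofd1, which controls centriole length, had 9.99 to 24.5 CPM in GEM-BCC and 18.5, 3.60, 32.8 and 2.71 CPM in Tp tumors 1 to 4, with Tp tumor 3 above and Tp tumors 2 and 4 below every GEM tumor. Its fold change was −0.36, and −0.31 with GC offsets.

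The spread between tumors was larger among the transplanted tumors for most cilium genes. The SD of log2 CPM was larger over the 4 Tp tumors than over the 9 GEM tumors in 41 of the 51 genes, against 62.8% of all genes. The median SD was 0.61 in Tp-BCC and 0.39 in GEM-BCC for the cilium genes, and 0.58 and 0.44 for all genes. After removal of the GC trend the medians for the cilium genes were 0.39 and 0.33 and the count was 32 of 51, against 41.2% of all genes. Across the GEM tumors the cilium genes did not move as a block. The median Pearson r over the 1275 gene pairs was 0.09 over 9 tumors, and 0.06 after removal of the GC trend, with 126 pairs above 0.7 and 83 below −0.7. These r values share libraries and tumors of the same mouse and are given as a description.

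Other genes of ciliary function, chosen by name and outside the 51, were read in the same fits. Of 89 listed, 85 were tested, and 10 passed as higher and 3 as lower, beside 11.1% and 8.35% of all genes, with a median of 0.06. With GC offsets the counts were 14 and 3, beside 15.1% and 13.3% of all genes. Without Tp tumors 2 and 4 they were 5 and 0, beside 839 and 645 of 14305 genes. They were 6 and 0 without Tp tumor 2, 11 and 5 without Tp tumor 3 and 7 and 1 without Tp tumor 4. Of the 8 genes that take cilia down before division, 3 passed as higher and none as lower, beside 11.1% and 8.35% of all genes. Fold changes of the 8 ran from −1.13 to 2.27. With GC offsets 3 passed as higher and 1 as lower, beside 15.1% and 13.3% of all genes. Aurka, the kinase that starts disassembly, was at 15.4 ± 4.50 CPM (SD, n = 9) and 57.7 ± 11.9 CPM (SD, n = 4), a log2 fold change of 1.91 (edgeR adjusted p = 0.000148). Plk1, a mitotic kinase, was at 2.27 (edgeR adjusted p = 0.000498) and Nek2 at 0.90 (edgeR adjusted p = 0.0364). Aurka, Plk1 and Nek2 are also cell-cycle genes. Of 20 cell division genes 10 passed as higher, beside 11.1% of all genes, led by Ube2c at 2.00 and Cdc20 at 1.59. The part of dividing cells in the values of Aurka, Plk1 and Nek2 was not tested.

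Cdk20, a kinase that restrains cilium growth, was higher at 1.07 (edgeR adjusted p = 0.0108), as was Arl2bp at 0.75 (edgeR adjusted p = 0.0321). In the inversin compartment and the gate beside it, Anks6 was higher at 1.29 (edgeR adjusted p = 0.00729) and Nphp4 at 1.03 (edgeR adjusted p = 0.0262), while Ahi1, a Joubert syndrome protein of the gate, was lower at −1.99 (edgeR adjusted p = 0.0235). Cep97, a cap that keeps centrioles from growing a cilium, was lower at −1.47 (edgeR adjusted p = 0.0247). Of the transport proteins outside the 51, Cluap1, an IFT-B subunit, was lower at −0.92 (edgeR adjusted p = 0.0388) and Dynll1, a dynein light chain, higher at 0.76 (edgeR adjusted p = 0.0373). Rfx1, a factor that binds X-boxes, was higher at 0.81 (edgeR adjusted p = 0.0107), and 0.51 with GC offsets. Nphp4 and Cluap1 did not pass with GC offsets, at 0.63 and −0.44, and the other 10 of these 12 named genes did.

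Of 11 core Hedgehog genes, 3 passed as higher and none as lower, beside 11.1% and 8.35% of all genes. They were Gli2, the main activator, at 1.28 (edgeR adjusted p = 0.00313), Gas1, a co-receptor, at 1.08 (edgeR adjusted p = 0.0144), and Sufu, which holds Gli back, at 0.88 (edgeR adjusted p = 0.0229). These 3 also passed with GC offsets, where 4 of the 11 passed as higher, beside 15.1% of all genes. Without Tp tumors 2 and 4 none of the 11 passed, while 10.4% of all genes did. The fold changes were then positive in 5 and negative in 6, with a median of −0.04.

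Most vertebrate cells carry a primary cilium, so the RNA of stroma and tumor cells adds up in these values, and fewer cells of a type and less RNA per cell cannot be told apart in bulk tumors. Multiciliated cells, which share IFT genes, were near absent: summed over the 14 of 18 listed markers with a value in all tumors, they reached 4.18 to 14.98 CPM in GEM-BCC and 6.78 to 7.52 CPM in Tp-BCC, with none passing. The 10 keratinocyte markers, 3 of which passed as lower (Krt15, Dsp and Perp) and none as higher, summed to 12967 to 21368 CPM in GEM-BCC and 8556 to 20371 CPM in the Tp tumors. Among 10 fibroblast markers 4 passed as higher and 1 as lower, with sums of 13322 to 50432 and 17044 to 29589 CPM. The 8 endothelial markers, 4 passing as higher, summed to 96.2 to 257 and 343 to 422 CPM, and the 6 adipocyte markers, of which the 4 tested all passed as higher, to 0.457 to 3.38 and 13.7 to 216 CPM. The 10 macrophage markers, of which 1 passed as higher, summed to 85.5 to 442 and 229.6 to 457 CPM, and the 7 T cell markers with a value, none of which passed, to 5.54 to 15.2 and 5.27 to 12.6 CPM. The 8 skeletal muscle markers summed to 1.91 to 7.05 and 1.88 to 129 CPM, with none of the 4 tested passing. The mean deviation of those 4 was highest in Tp tumor 4, at 2.96 on the log2 scale, the tumor in which the motors read lowest. In Tp tumor 2 it was 0.47 with the motors at −1.46, and in GEM tumor 3 it was 0.92 with the motors at 0.52. The part of cell makeup in the cilium values was not tested.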

How the data were processed

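Total RNA was enriched with oligo(dT) beads and sequenced from 9 GEM-BCC and 4 Tp-BCC tumors. Per the labels, the authors aligned reads to GRCm39 with Bowtie2 2.3.4.3 and deposited expected counts per gene from RSEM 1.3.1, run strand-specifically. These were rounded. Genes with a value in all tumors (16687 of 21100) and 10 or more counts in 4 or more tumors were kept, leaving 14390. TMM normalization and robust quasi-likelihood F tests (2-sided) were run in edgeR 4.0.16 under R 4.3.3, with DESeq2 1.42.0 as an alternative. The tests took the 9 GEM tumors as independent, although they came from 7 mice. SE is the absolute log2 fold change divided by the root of F. CPM used TMM library sizes, and log2 CPM a prior count of 2. GC content and length were medians over the protein-coding GENCODE transcripts of a gene (all its transcripts where it had none). They came from GRCm38, another build than the counts. GC trends were lowess fits (span 0.3). The scripts were tested on simulated data. No cilium gene shared 100-base words with another gene.

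Named genes were those that passed, the best expressed per length of each role, the most and least variable, passing genes of the other lists (at most 4 a list) and at most 10 more. The cilium genes, lists and tests were chosen with earlier results of these data known. No 2 libraries had identical counts. Alternatives changed normalization, filter, tool, dispersions, offsets and the tumors included, added a replicate block, or summed the counts of each mouse. The values of the fit with summed counts are not given separately. The values of 1 other ciliary gene that passed are not reported here.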

Additional observations from a re-analysis of the deposited data

Results flagged for a closer look

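B9d1 in GEM tumor 3 was the value flagged among the groups examined. Its log2 CPM of 5.49 lay above the next highest GEM tumor at 4.68, a gap of 0.606 of the whole range of the 9 tumors, over Dixon's 95% critical value of 0.493. Of 32 groups examined in this way 1 was flagged, and chance flags about 1 in 20. Most cilium genes were not examined. GEM tumor 3 was also highest of the GEM tumors for B9d2 (4.95, next 3.70) and Ift22 (5.25, next 4.60). The median transcript lengths of these 3 genes are short, at 655.5, 794 and 653.5 bases, although the longest coding transcript of Ift22 held 2972 different 100-base words. In GEM tumor 3 deviations over all genes correlated with median transcript length at −0.35. The part of that trend was not tested.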

How the results depend on the processing

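Without Tp tumors 1 and 3, 22 cilium genes passed as lower and 12 passed with a log2 fold change above 2 in size, with a median of −0.30. Of all 14275 genes in that fit 3398 passed as lower, 2721 as higher and 1850 with that fold. Among other ciliary genes 17 passed as higher and 27 as lower. Without Tp tumors 2 and 4 the counts were 0 higher and 1 lower, beside 839 and 645 of 14305 genes. The median was −0.015, and the other ciliary genes 5 and 0. GC offsets gave 5 lower, beside 13.3% of all genes. GC and length offsets, chosen after seeing the data, gave 6 lower, and 19 and 5 other ciliary genes. Of all 14390 genes 2433 passed there as higher and 2131 as lower. A log2 fold of 1 in place of 2 gave 1 call, and the share of all genes at that fold is not given. The Tp spread after removal of the GC trend was 0.39. Leaving out each tumor in turn gave 0 to 3 higher and 1 to 6 lower cilium genes, and 0 calls above the fold of 2 in every fit. Medians ran from −0.23 to −0.14, with 6 to 13 higher and 0 to 5 lower other ciliary genes. Shares of all genes are not given for those fits. The replicate block gave each running number its own term. Numbers above 4 occur in GEM-BCC only, so those GEM tumors did not bear on the contrast, which rested on few tumors. With this block, 0 cilium genes and 0 other ciliary genes passed edgeR's test in either direction, with 1 and 7 at an unadjusted p under 0.05. Of all genes 106 passed as higher and 72 as lower. The running numbers are only names: deviations of same-numbered tumors correlated at −0.38, −0.12, −0.10 and −0.18, and no Tp tumor correlated best with the GEM tumor of its own number.

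Over 27 alternatives no fold change of a gene that passed reversed. Evc2 no longer passed in 14, Iqce in 6, Evc in 4, Ift20 in 3 and Ankmy2 in 3. A cilium gene that did not pass is not shown to be equal in the models. Reads were fewest for Cep290, with 3 in Tp tumor 2 and 67 in Tp tumor 3.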
